A study of Homo sapiens with 8 samples.

Results

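The proteasome genes PSMA to PSMG were followed in 2 human acute myeloid leukaemia lines treated with a compound that the labels call dG. Of 57992 genes counted, 48 carried a symbol of the form PSM, a letter from A to G and a number, and the 46 of them with a mean of at least 1 CPM (a count scaled to the library size) over the 8 libraries are described here. They were 14 genes of the 20S core (7 PSMA and 7 constitutive PSMB genes), 20 of the 19S cap (6 PSMC and 14 PSMD), 5 of the immunoproteasome (PSMB8, PSMB9, PSMB10, PSME1 and PSME2), 3 other regulators (PSME3, PSME4 and PSMF1) and 4 assembly factors (PSMG1 to PSMG4). The limit of 1 CPM fell in a wide gap: the lowest genes inside it were PSMC1 with a mean of 4.14 CPM and PSMB10 with 4.33 CPM, and the 2 outside it were PSMA8, with 2 reads in all libraries together, and PSMB11, with 0. All 46 passed the filter on low counts. The groups were KG1A in 10 mM dG, KG1A in the vehicle PBS, U937 in 10 mM dG and U937 in PBS, with 2 libraries each, and the medium of every group was RPMI with dialyzed serum. KG1A is a line of immature, CD34-bearing leukaemic cells and U937 a line of monoblast character, and each stands for 1 patient. The labels give no duration of treatment and do not say whether the replicates were separate cultures. The p-values thus rest on the spread between these libraries, which may be technical. The estimate of that spread for each gene leans largely on the other genes. The design compares dG with PBS in each line and the size of that effect between the lines.

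The proteasome degrades proteins that carry ubiquitin chains. Its 20S core is a stack of alpha rings (PSMA) outside and beta rings (PSMB) inside, in which PSMB5, PSMB6 and PSMB7 do the cutting, and the 19S cap holds an ATPase ring (PSMC) that unfolds the substrate and PSMD subunits that receive, unchain and admit it. Cells of the blood lineage and cells that see interferon build PSMB8, PSMB9 and PSMB10 into new cores in place of PSMB5, PSMB6 and PSMB7, and these immunoproteasomes, together with the PSME1 and PSME2 activator ring, supply peptides for MHC class I. The transcription factor NFE2L1 raises the genes of the whole particle when proteasome activity falls short, through antioxidant response elements.

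The immunoproteasome class holds PSMB9, the one gene called higher in dG in both lines, so the promoters of this class are shown first, with the interferon element in capitals where the window holds it. Each window spans 250 bases before to 50 bases after a RefSeq transcription start (GRCh38.p14), 5′ to 3′ along the gene. Of the 46 genes, 40 were matched in the RefSeq table, with 49 windows. PSMB8 has more than 1 listed start, and the one whose window holds the element is printed. TAP1, the peptide transporter subunit that is transcribed away from PSMB9 next door, is included because the space between the RefSeq starts shown is a promoter for both. The full annotated spans of the 2 genes overlap. In PSMB9's own window the capitals mark an antioxidant response element core (TGACNNNGC, read on the other strand), and the same core is marked in PSMD1, the cap scaffold with the largest fall of the 19S genes in U937.
PSMB8 (chr6:32843998-32844297, minus strand): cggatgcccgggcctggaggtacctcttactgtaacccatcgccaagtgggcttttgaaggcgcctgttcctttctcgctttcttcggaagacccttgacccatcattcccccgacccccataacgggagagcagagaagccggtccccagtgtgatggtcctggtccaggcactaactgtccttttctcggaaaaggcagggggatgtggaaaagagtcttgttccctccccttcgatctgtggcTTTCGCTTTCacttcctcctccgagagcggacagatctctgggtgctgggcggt
PSMB9 (chr6:32853942-32854241, plus strand): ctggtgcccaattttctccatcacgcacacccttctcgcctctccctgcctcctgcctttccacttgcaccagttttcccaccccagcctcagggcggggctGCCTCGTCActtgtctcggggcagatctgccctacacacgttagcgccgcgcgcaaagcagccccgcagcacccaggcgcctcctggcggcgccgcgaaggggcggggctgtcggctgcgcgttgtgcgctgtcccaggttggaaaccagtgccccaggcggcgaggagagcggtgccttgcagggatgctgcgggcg
TAP1 (chr6:32853655-32853954, minus strand): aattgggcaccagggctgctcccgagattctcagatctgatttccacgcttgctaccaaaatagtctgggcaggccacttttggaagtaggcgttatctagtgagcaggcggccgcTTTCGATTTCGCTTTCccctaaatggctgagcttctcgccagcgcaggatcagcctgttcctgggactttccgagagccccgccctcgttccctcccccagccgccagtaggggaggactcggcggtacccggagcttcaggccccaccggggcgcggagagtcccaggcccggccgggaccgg
PSMB10 (chr16:67936801-67937100, minus strand): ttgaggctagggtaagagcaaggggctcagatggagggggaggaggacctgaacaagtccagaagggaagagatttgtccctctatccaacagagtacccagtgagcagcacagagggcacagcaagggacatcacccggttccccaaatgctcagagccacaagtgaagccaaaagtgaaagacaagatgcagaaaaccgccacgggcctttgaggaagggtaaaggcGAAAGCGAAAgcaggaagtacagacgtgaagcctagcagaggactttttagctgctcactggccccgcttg
PSME1 (chr14:24135944-24136243, plus strand): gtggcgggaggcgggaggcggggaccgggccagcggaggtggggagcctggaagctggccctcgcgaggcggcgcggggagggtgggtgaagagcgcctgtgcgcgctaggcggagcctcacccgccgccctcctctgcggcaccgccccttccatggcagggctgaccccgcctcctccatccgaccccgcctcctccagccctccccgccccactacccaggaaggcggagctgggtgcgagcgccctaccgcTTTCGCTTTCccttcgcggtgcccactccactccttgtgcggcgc
PSME2 (chr14:24146561-24146860, minus strand): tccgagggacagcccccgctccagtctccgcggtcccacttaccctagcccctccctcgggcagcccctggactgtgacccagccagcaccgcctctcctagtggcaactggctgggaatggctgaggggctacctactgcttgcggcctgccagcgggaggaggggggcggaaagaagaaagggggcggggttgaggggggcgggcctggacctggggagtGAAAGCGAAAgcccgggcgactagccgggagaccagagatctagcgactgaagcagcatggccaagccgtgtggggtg
PSMD1 (chr2:231056617-231056916, plus strand): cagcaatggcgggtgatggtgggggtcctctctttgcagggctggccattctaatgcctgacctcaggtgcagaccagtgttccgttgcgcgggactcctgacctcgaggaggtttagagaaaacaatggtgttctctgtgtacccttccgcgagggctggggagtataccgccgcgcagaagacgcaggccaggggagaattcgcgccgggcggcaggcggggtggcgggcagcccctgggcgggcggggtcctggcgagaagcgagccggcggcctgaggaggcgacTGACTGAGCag

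The 4 immunoproteasome windows that hold the interferon element (a pair of TTTC with any 2 bases between, searched on both strands) all hold it in 1 exact form, with GC between, on one strand or the other, and TAP1 holds the same letters within a longer run. In PSMB10 and PSME2 it lies 21 to 12 and 28 to 19 bases before the start, in PSMB8 it spans the start, from 4 bases before to 5 after it, and in PSME1 it lies 5 to 14 bases after. The looser element was present in 14.3% of the 49 windows, against 3.57% of all 35116 RefSeq windows of the same length. The exact form, searched for after these windows had been seen, was present in 5 of the 49 windows and in 35 of the 35116, and the fifth gene with it was PSMG4. The antioxidant core was present in 30.6% of windows against 13.3% of all windows, and the gamma-activated sequence TTCNNNGAA in 14.3% against 7.66%. The exact form is part of the looser interferon element, and these elements can overlap the gamma-activated sequence in part. An E-box (CACGTG) and a CCAAT box, added afterwards, were present in 6.12% and 38.8% of the windows, against 7.26% and 34.6% of all. The windows were richer in G and C than the rest, with a median of 62.3% against 58.7%. A match is a description of letters and not a site of binding.

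Library totals ran from 21053724 to 31135338 counts. Levels across libraries are in CPM after TMM scaling, and levels between genes in the authors' RPKM (reads per kilobase of exon, scaled by library). Every fold change is a log2 value, dG over PBS, with a p-value from edgeR's quasi-likelihood test, adjusted over all 18314 genes tested. The standard error was computed from that test, as the size of the fold change over the square root of the F value. A gene is called higher or lower at an adjusted p under 0.05. The summed CPM of 7 monoblast markers ran from 815 to 824 in U937 dG and from 525 to 529 in U937 PBS, and from 0.847 to 1.07 in KG1A dG and 0.173 to 0.239 in KG1A PBS. The summed CPM of 5 stem and progenitor markers ran from 1373 to 1382 in KG1A dG and 1084 to 1084 in KG1A PBS. Of the defining markers, MPO was near 0 in all 8 libraries (0 to 0.199 CPM), also in U937, and MEIS1 lay at 149 and 147 CPM in U937 dG and 154 and 153 CPM in U937 PBS, against 0.0711 and 0.0807 CPM in KG1A dG and 0 in KG1A PBS. Of 6 erythroid markers 4 had no read in any library, and 6 lymphoid markers, mostly CD3D, summed to 122 to 126 CPM in KG1A dG and 105 to 107 CPM in KG1A PBS. The line markers thus moved with dG as well, and their part in the results below was not tested.

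In KG1A, most proteasome genes were lower in dG. Of the 46 genes 39 were lower in dG, where 19.6% of all genes tested were lower, and 1 gene, PSMB9, was higher, where 29.6% of all genes were. The 6 that were not called were PSMB8, PSMB10, PSME2, PSMD4, PSMD9 and PSMG4, so 3 of these 6 belong to the 5 immunoproteasome genes. The median log2 fold change was -0.31 over the 46 genes and 0.04 over all genes. In these bulk libraries, less RNA per cell and fewer cells of a type cannot be told apart. In U937, where 64% of all genes were called in either direction, 31 of the 46 genes were lower in dG, against 31.5% of all genes, and 6 were higher, against 32.4% of all genes. Those 6 were PSMB9, PSME1, PSME2, PSME4, PSMA7 and PSMC1, and 3 of them are immunoproteasome genes. The direction of PSMC1 depends on how reads of its pseudogenes are counted: summed with them, it was lower in U937 (-0.26). The median was -0.33, against 0 over all genes.

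The falls shared by both lines covered 28 of the 46 genes, where 13.1% of all genes were lower in both. A further 7 were lower in KG1A and not called in U937 (3.96% of all genes), and 4 (PSMA7, PSMC1, PSME1 and PSME4) were lower in KG1A and higher in U937 (2.51% of all genes). Summed with their pseudogenes, PSMC1 of these 4 and PSMA6 of the 7 were lower in U937 (-0.26 and -0.43). PSMB9 was the gene called higher in both, as 15.4% of all genes were. On the RPKM scale with a pseudocount of 1, 4085 genes were higher and 4202 lower in KG1A, beside 5413 and 3581 in the count fit. Some of the calls depended on 1 library. In KG1A, PSMA6 lost its call without any 1 of the 4 KG1A libraries (adjusted p = 0.0678 to 0.0868), and PSMC5 without PBS replicate 1, PBS replicate 2 or dG replicate 2 (adjusted p = 0.0564, 0.202 and 0.254). PSMC1, PSMD5, PSMF1 and PSMG2 lost theirs as given with each gene, and with the DESeq2 test PSMA6, PSMC1, PSMC5 and PSMG2 were not called in KG1A (adjusted p = 0.0787 to 0.139). With 1 library left out, 4 of the 9 genes not called in U937 were called: PSMA5 was lower without U937 PBS replicate 1, KG1A dG replicate 1 or KG1A dG replicate 2 (adjusted p = 0.0487, 0.0453 and 0.0444), PSMD8 and PSMD10 were higher without U937 dG replicate 2 (adjusted p = 0.00265 and 0.0100), and PSMG3 was higher without U937 dG replicate 1 (adjusted p = 0.0258). Under other alternatives PSMA5 was called lower in U937 with library sizes alone and with each line alone (adjusted p = 8.60e-04 and 0.0376), and PSMB5 with library sizes alone (adjusted p = 0.0129).

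**Figure D1:**
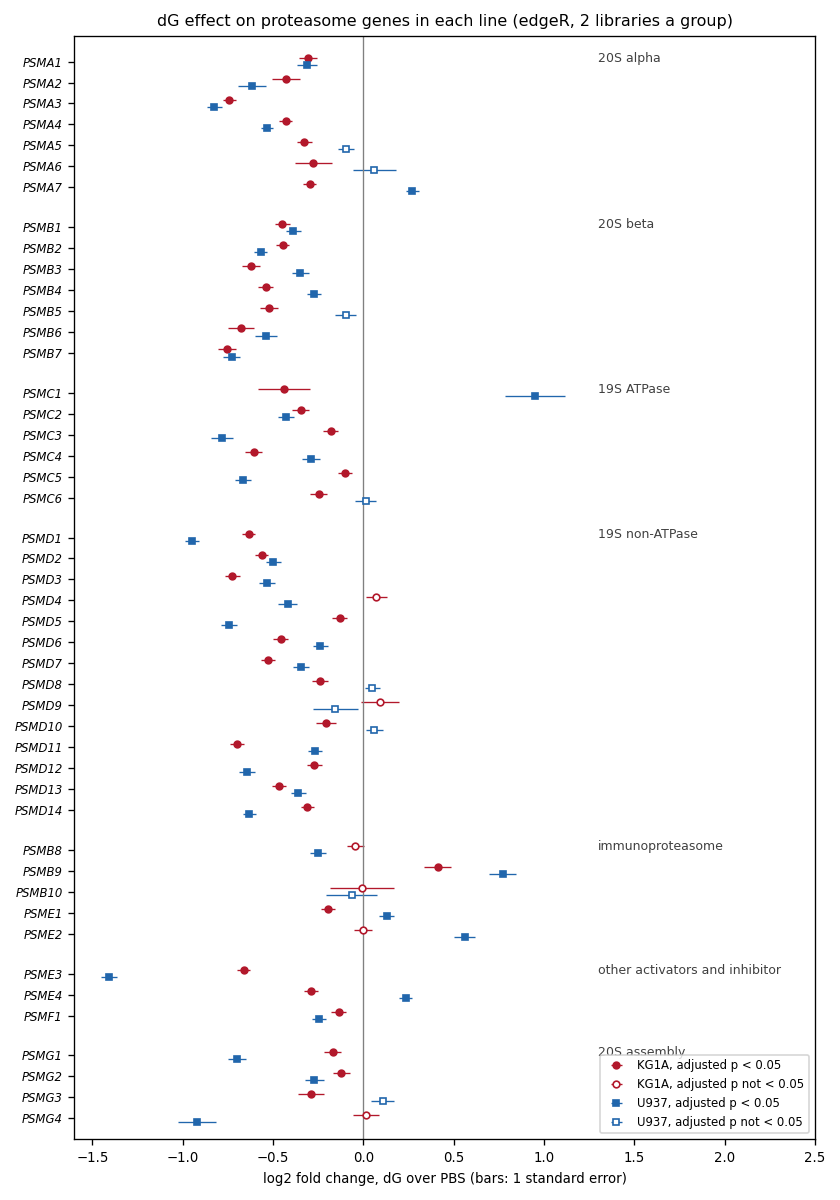
log2 fold change of the 46 proteasome genes, dG over PBS, in KG1A (circles) and U937 (squares) with 1 standard error, grouped by class. Filled symbols have an adjusted p under 0.05. Most genes of the core and cap lie left of 0 in both lines, PSMB9 lies right of it in both, and PSME3 in U937 lies farthest left at -1.41.

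All 14 core genes were lower in KG1A dG, with a median of -0.45. In U937 10 of the 14 were lower, 1 was higher and 3 (PSMA5, PSMA6 and PSMB5) were not called. Beside these counts, 19.6% of all genes were lower in KG1A, and 31.5% were lower and 32.4% higher in U937. PSMA3, an alpha ring subunit (ENSG00000100567, GRCh38 chromosome 14, 58244831 to 58272012), had 126 and 130.0 CPM in KG1A dG, against 213 and 215 CPM in KG1A PBS. It had 58.8 and 60.01 CPM in U937 dG, against 104 and 107 CPM in U937 PBS. These were the largest falls among the alpha genes in both lines, -0.74 ± 0.037 and -0.82 ± 0.043 (adjusted p = 7.97e-19 and 7.24e-19), and dG and PBS libraries lay far apart.

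PSMA7, an alpha subunit, had the highest RPKM of all 46 genes in each of the 4 groups and moved in opposite directions in the 2 lines. It had 149 and 141 CPM in KG1A dG, against 174 and 182 CPM in KG1A PBS, a fold change of -0.30 ± 0.038. In U937 it had 261 and 253 CPM in dG, against 208 and 218 CPM in PBS, a fold change of 0.27 ± 0.037 (adjusted p = 4.27e-08). Both dG libraries lay below both PBS libraries in KG1A and above them in U937, and the difference between the lines was 0.57 ± 0.053 (adjusted p = 2.23e-11). PSMA6, the alpha gene with the smallest fall in KG1A, had 8.42 and 8.47 CPM in KG1A dG, against 10.4 and 10.1 CPM in KG1A PBS, and in U937 6.38 and 6.79 CPM in dG, against 6.24 and 6.37 CPM in PBS. PSMA5 fell in KG1A (-0.33 ± 0.040) and was not called in U937 (-0.097 ± 0.044). The remaining alpha genes PSMA1, PSMA2 and PSMA4 fell in both lines, with fold changes of -0.31, -0.43 and -0.43 in KG1A and -0.31, -0.62 and -0.53 in U937.

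Among the structural beta genes PSMB1 to PSMB4, all were lower in both lines, where 13.1% of all genes were. PSMB3 had the largest fall of these in KG1A, with 67.3 and 60.1 CPM in dG, against 95.99 and 100.1 CPM in PBS (-0.62 ± 0.048), and in U937 it had 68.2 and 65.7 CPM in dG, against 83.6 and 87.1 CPM in PBS (-0.35 ± 0.049). PSMB2 had the largest of these in U937, with 158 and 158 CPM in dG, against 232 and 236 CPM in PBS (-0.57 ± 0.037), and in KG1A it had 159.6 and 149 CPM in dG, against 208 and 213 CPM in PBS (-0.45 ± 0.037). PSMB1 had 117 and 107 CPM in KG1A dG, against 153 and 152 CPM in KG1A PBS, and 133 and 128 CPM in U937 dG, against 171 and 171 CPM in U937 PBS. PSMB4, which fell least in U937, had 106 and 96.97 CPM in KG1A dG, against 147 and 149 CPM in KG1A PBS, and 168 and 164 CPM in U937 dG, against 202 and 200.4 CPM in U937 PBS. No dG library overlapped a PBS library for any of them. Here and elsewhere, the share of all genes without such overlap is not given. With 2 libraries against 2 the smallest p of an exact two-sided test is 0.33, so a lack of overlap alone says little.

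Of the constitutive catalytic genes, 3 of 3 fell in KG1A and 2 of 3 in U937, where 19.6% and 31.5% of all genes were lower. PSMB7, the trypsin-like subunit, had 64.5 and 56.5 CPM in KG1A dG, against 99.1 and 105 CPM in KG1A PBS, and 68.8 and 66.8 CPM in U937 dG, against 111 and 114 CPM in U937 PBS. Its fold changes of -0.76 ± 0.049 in KG1A and -0.73 ± 0.049 in U937 did not differ between the lines past the threshold (difference 0.027 ± 0.070, adjusted p = 0.831). PSMB6, the caspase-like subunit, had 20.5 and 17.8 CPM in KG1A dG, against 31.2 and 30.3 CPM in KG1A PBS (-0.68 ± 0.072), and 37.3 and 32.9 CPM in U937 dG, against 51.5 and 50.8 CPM in U937 PBS (-0.54 ± 0.062). PSMB5, the chymotrypsin-like subunit that proteasome inhibitor drugs bind, had 54.1 and 49.4 CPM in KG1A dG, against 72.4 and 76.4 CPM in KG1A PBS (-0.52 ± 0.052, adjusted p = 9.10e-11). In U937 PSMB5 had 39.03 and 35.7 CPM in dG, against 39.8 and 40.4 CPM in PBS, which did not pass the test (-0.099 ± 0.060, adjusted p = 0.153; called lower with library sizes alone, -0.17), and its effects differed between the lines by 0.42 ± 0.079 (adjusted p = 2.87e-05).

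Of the immunoproteasome counterparts PSMB8, PSMB9 and PSMB10, 1 rose in both lines, 1 fell in U937 and 1 was called in neither line. Over all genes, 15.4% were higher in both lines and 31.5% were lower in U937. PSMB9, which takes the place of PSMB6 (ENSG00000240065, GRCh38 chromosome 6, 32844136 to 32859585), had 27.1 and 23.9 CPM in KG1A dG, against 19.1 and 19.2 CPM in KG1A PBS. It had 31.5 and 29.4 CPM in U937 dG, against 17.1 and 18.7 CPM in U937 PBS. PSMB9 thus rose in both lines, by 0.41 ± 0.075 in KG1A (adjusted p = 1.39e-05) and 0.77 ± 0.075 in U937 (adjusted p = 1.87e-11), with every dG library above every PBS library. The rise was larger in U937 by 0.36 ± 0.11 (adjusted p = 0.00523), a difference that missed the threshold without U937 PBS replicate 1 (adjusted p = 0.0535).

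PSMB8, which takes the place of PSMB5 (ENSG00000204264, GRCh38 chromosome 6, 32840717 to 32844703), had 88.6 and 79.2 CPM in KG1A dG, against 86.2 and 87.1 CPM in KG1A PBS, where the libraries overlapped and no change was called (-0.045 ± 0.046, adjusted p = 0.452). It was called lower there without KG1A dG replicate 1 and with library sizes alone (adjusted p = 0.0431 and 0.0469). In U937 it had 92.2 and 89.6 CPM in dG, against 108 and 108 CPM in PBS, a fold change of -0.25 ± 0.045 (adjusted p = 7.80e-06). The difference of -0.21 ± 0.064 between the lines was lost with DESeq2 size factors, no filter, the DESeq2 test and on RPKM (adjusted p = 0.196 to 0.589) and without KG1A dG replicate 1, U937 dG replicate 1 or U937 dG replicate 2 (adjusted p = 0.157, 0.3327 and 0.643). PSMB10, which takes the place of PSMB7, was low, with 3.38 and 2.66 CPM in dG, against 2.64 and 3.38 CPM in PBS in KG1A and 5.04 and 6.01 CPM in dG, against 5.801 and 5.697 CPM in PBS in U937. Its libraries overlapped in both lines and it was called in neither (-0.0063 ± 0.18 and -0.064 ± 0.14).

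The activator ring genes PSME1 and PSME2, neighbours on chromosome 14, differed between the lines. PSME2 had 52.3 and 49.7 CPM in KG1A dG, against 50.2 and 51.9 CPM in KG1A PBS, with overlapping libraries (adjusted p = 1). In U937 it had 45.1 and 44.2 CPM in dG, against 30.95 and 29.5 CPM in PBS, a rise of 0.56 ± 0.058 (adjusted p = 8.46e-11), and the lines differed by 0.56 ± 0.077 (adjusted p = 1.40e-07). PSME1 had 109 and 103 CPM in KG1A dG, against 121 and 122 CPM in KG1A PBS, a fold change of -0.20 ± 0.040. In U937 PSME1 had 96.2 and 94.8 CPM in dG, against 87.2 and 87.3 CPM in PBS, a rise of 0.13 ± 0.042 (adjusted p = 0.00761) that missed the threshold without U937 PBS replicate 2 (adjusted p = 0.0512) and with library sizes alone (adjusted p = 0.249). Of the 4 immunoproteasome genes whose windows hold the exact interferon element, 0 were called higher in KG1A and 2 in U937, where 29.6% and 32.4% of all genes were. In KG1A PSME1 was called lower, where 19.6% of all genes were. In U937 PSMB8 was called lower, as was PSMG4, the assembly gene with the same element, where 31.5% of all genes were.

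**Figure D2:**
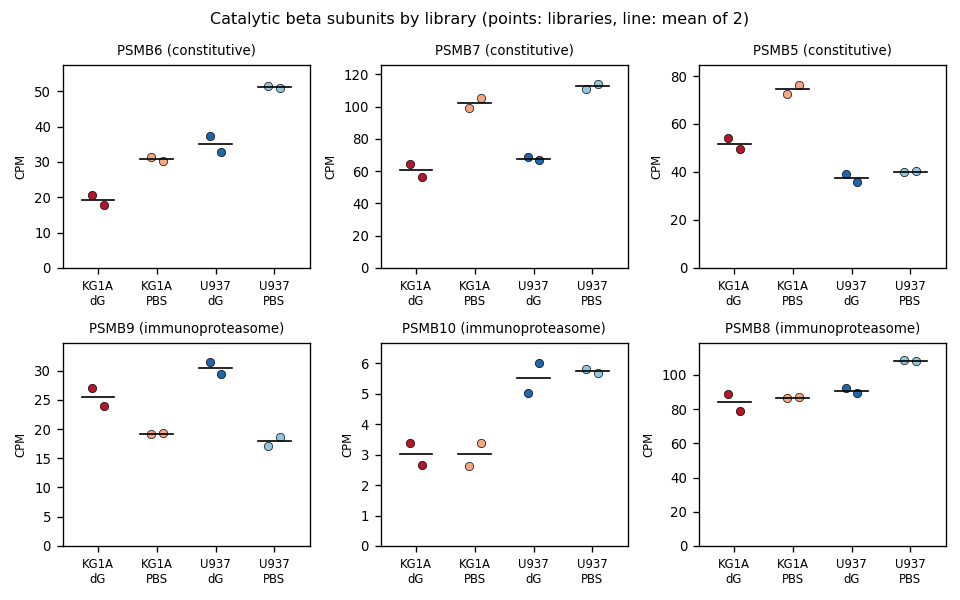
CPM of the 3 constitutive catalytic genes (top) and of the immunoproteasome gene that replaces each (bottom) in the 8 libraries, dG left of PBS within each line. Points are libraries and lines are means of 2. PSMB6 and PSMB7 are lower in dG in both lines, while PSMB9 is higher in dG in both and PSMB10 overlaps.

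Expressed as a share of its catalytic pair in RPKM, each immunoproteasome gene can be read against its counterpart within a library, whatever the scaling. In KG1A, PSMB9 made up 38.4 and 38.8% of PSMB9 plus PSMB6 in dG, against 22.4 and 23.1% in PBS. In U937, PSMB9 made up 28.4 and 29.6% in dG, against 13.5 and 14.8% in PBS. These are mean differences of 15.8 percentage points in KG1A and 14.9 in U937. In KG1A, PSMB8 made up 59.01 and 58.5% of PSMB8 plus PSMB5 in dG, against 51.2 and 50.1% in PBS. In U937, PSMB8 made up 67.5 and 68.8% in dG, against 70.6 and 70.1% in PBS, so that its share was higher in dG in KG1A and lower in dG in U937. In KG1A, PSMB10 made up 4.81 and 4.35% of PSMB10 plus PSMB7 in dG, against 2.51 and 3.005% in PBS. In U937, PSMB10 made up 6.603 and 7.98% in dG, against 4.79 and 4.61% in PBS, while PSMB10 itself was called in neither line and PSMB7 fell in both. No share overlapped between dG and PBS libraries. With 2 libraries against 2 the smallest exact two-sided p is 0.33, so the shares were not tested, and PSMB10 and PSMB8 share exons with other genes, so that the levels of their shares are uncertain. The level of the PSMB9 share is uncertain too. Without division by exon length its mean was 57.1% in KG1A dG and 38.4% in KG1A PBS, and 5.66% of PSMB9's exonic bases are shared with other genes.

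**Figure D3:**
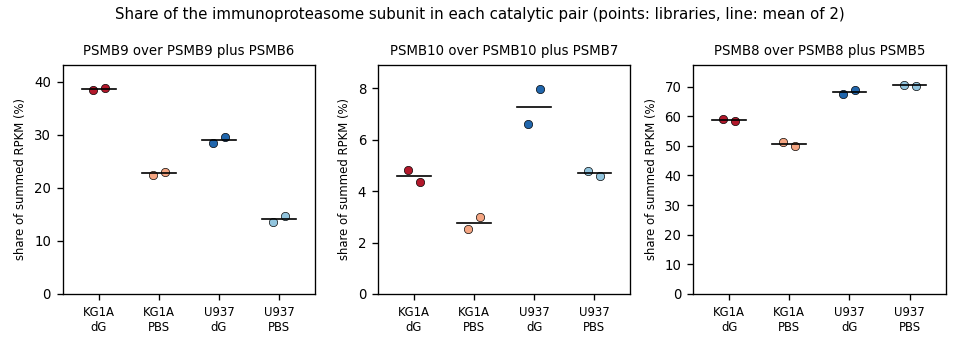
Share of PSMB9, PSMB10 and PSMB8 in the summed RPKM of each with its constitutive counterpart, in percent, by library (points) with the mean of 2 (lines), dG left of PBS within each line. The PSMB9 share lies between 28.4% and 38.8% in dG libraries and between 13.5% and 23.1% in PBS libraries.

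In the 19S cap, 18 of 20 genes were lower in KG1A dG (median -0.33), and 15 of 20 were lower and 1, PSMC1, higher in U937 dG (median -0.39). The shares of all genes tested were 19.6% lower in KG1A, and 31.5% lower and 32.4% higher in U937. Among the ATPases, PSMC4 had the largest fall in KG1A, with 66.1 and 62.3 CPM in dG, against 97.9 and 98.1 CPM in PBS (-0.61 ± 0.047), and in U937 it had 72.3 and 65.1 CPM in dG, against 84.4 and 83.9 CPM in PBS (-0.29 ± 0.048). PSMC3 had the largest fall of the ATPases in U937, with 26.02 and 26.2 CPM in dG, against 43.9 and 45.97 CPM in PBS (-0.78 ± 0.059, adjusted p = 2.54e-14), and a small one in KG1A, with 123 and 116 CPM in dG, against 132 and 139 CPM in PBS (-0.18 ± 0.041). PSMC5 followed it, with 58.5 and 55.5 CPM in U937 dG, against 91.9 and 88.95 CPM in U937 PBS (-0.67 ± 0.046) and 124 and 119 CPM in KG1A dG, against 129 and 132 CPM in KG1A PBS (-0.10 ± 0.040). PSMC3 and PSMC5 thus fell more in U937 than in KG1A, with differences of -0.60 and -0.56 (adjusted p = 8.24e-09 and 7.13e-10), and PSMC4 fell less in U937, with a difference of 0.32. PSMC2 fell in both (-0.35 ± 0.047 in KG1A and -0.43 ± 0.043 in U937), and a difference was not detected (-0.079 ± 0.064, adjusted p = 0.348). PSMC6 fell in KG1A (-0.25 ± 0.047) and was not called in U937 (0.014 ± 0.058).

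PSMD1, a large scaffold subunit of the cap, had 158 and 154 CPM in KG1A dG, against 241 and 243 CPM in KG1A PBS (-0.64 ± 0.035). It had 82.3 and 80.1 CPM in U937 dG, against 159 and 155 CPM in U937 PBS, the largest fall of a cap gene in U937 (-0.95 ± 0.039, adjusted p = 7.49e-22). PSMD3, a lid subunit, had the largest cap fall in KG1A, with 83.1 and 80.2 CPM in dG, against 135 and 135 CPM in PBS (-0.72 ± 0.043, adjusted p = 1.11e-16), and in U937 it had 74.4 and 67.2 CPM in dG, against 103 and 103 CPM in PBS (-0.53 ± 0.045). PSMD11, another lid subunit, fell by 0.70 ± 0.038 in KG1A and by 0.27 ± 0.039 in U937. PSMD14, the deubiquitinase that cuts ubiquitin chains from the substrate, fell by 0.31 ± 0.036 in KG1A and fell by 0.63 ± 0.037 in U937. PSMD4, a ubiquitin receptor, was not called in KG1A (0.071 ± 0.058) and fell in U937 (-0.42 ± 0.053), a difference of -0.49 ± 0.079 (adjusted p = 2.58e-06).

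PSMD5, PSMD9 and PSMD10 are chaperones that help to assemble the cap and leave it afterwards. PSMD5 had 51.8 and 48.6 CPM in U937 dG, against 84.5 and 83.9 CPM in U937 PBS (-0.74 ± 0.047) and 89.6 and 88.5 CPM in KG1A dG, against 98.1 and 97.2 CPM in KG1A PBS (-0.13 ± 0.042); the fall in KG1A was lost without KG1A dG replicate 2 (adjusted p = 0.0529), while the fall in U937 was larger, with a difference of -0.61 ± 0.063 (adjusted p = 2.65e-10). PSMD9 had the highest fold change of the cap genes in KG1A, though it was not called, with 8.92 and 8.63 CPM in dG, against 8.06 and 8.41 CPM in PBS (0.090 ± 0.10), and in U937 it had 5.51 and 5.57 CPM in dG, against 6.27 and 6.06 CPM in PBS (-0.16 ± 0.13). PSMD10 had 39.04 and 40.9 CPM in KG1A dG, against 47.04 and 45.2 CPM in KG1A PBS (-0.21 ± 0.055) and, not called, 79.9 and 73.9 CPM in U937 dG, against 73.1 and 74.7 CPM in U937 PBS (0.060 ± 0.048), with overlapping libraries in U937. The other cap genes called in both lines, PSMD2, PSMD6, PSMD7, PSMD12 and PSMD13, were lower in each, with fold changes in KG1A of -0.56, -0.46, -0.53, -0.27 and -0.47 in that order and in U937 of -0.50, -0.24, -0.34, -0.64 and -0.36. PSMD8 fell in KG1A (-0.24 ± 0.042) and was not called in U937 (0.051 ± 0.042). With DESeq2 size factors and with the DESeq2 test PSMD8 was called higher in U937 (adjusted p = 0.00414 and 0.0184), as it was with no filter (adjusted p = 0.0346), and PSMD10 was called higher with DESeq2 size factors and the DESeq2 test (adjusted p = 0.00664 and 0.0406).

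**Figure D4:**
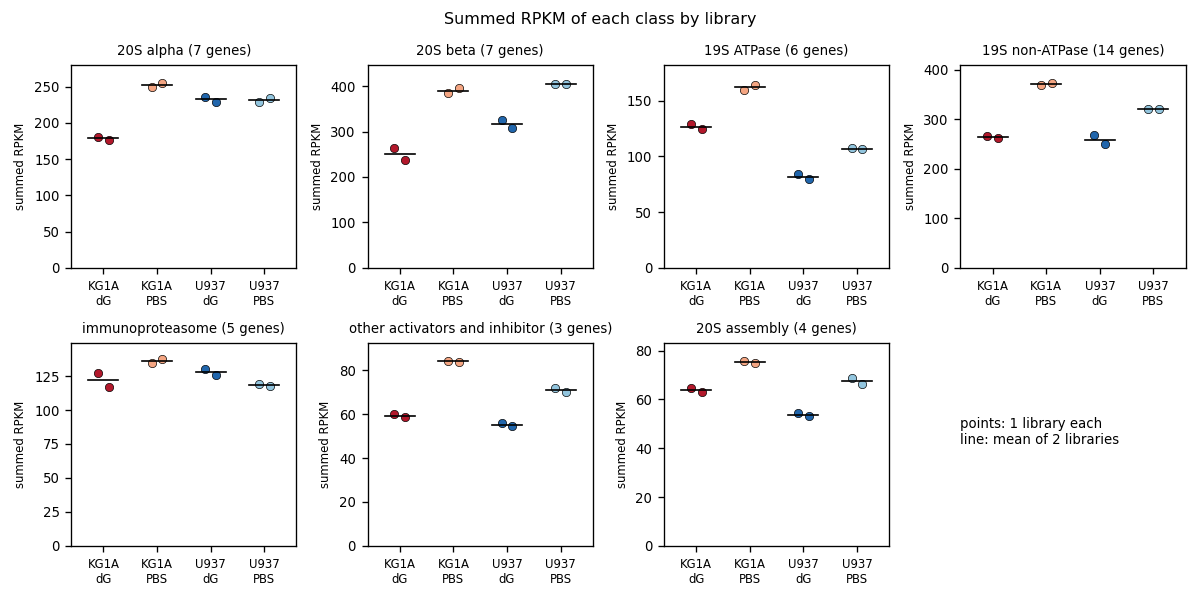
Summed RPKM of each class of proteasome gene in the 8 libraries (points) with the mean of 2 (lines), dG left of PBS within each line. The beta, cap, regulator and assembly sums are lower in dG in both lines, while the alpha sum is lower in dG in KG1A and overlaps in U937, and the immunoproteasome sum is lower in KG1A dG and higher in U937 dG.

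In KG1A the 14 core genes summed to 445 and 414 RPKM in dG, against 633 and 651 RPKM in PBS, a change of -33.1% in the mean. In U937 they summed to 560.1 and 536 RPKM in dG, against 634 and 638 RPKM in PBS, a change of -13.8%. The alpha genes summed to 236 and 229 RPKM in U937 dG, against 229 and 234 RPKM in U937 PBS. PSMA7 held a large part of that sum, with 151 ± 4.68 RPKM in U937 dG and 120.1 ± 2.68 RPKM in U937 PBS (mean ± SD, n = 2 each). The 20 cap genes summed to 395 and 386 RPKM in KG1A dG, against 528 and 538 RPKM in KG1A PBS, and to 352 and 329.7 RPKM in U937 dG, against 428 and 427 RPKM in U937 PBS. The 5 immunoproteasome genes summed to 127 and 117 RPKM in KG1A dG, against 134 and 137 RPKM in KG1A PBS, and to 129.8 and 126 RPKM in U937 dG, against 119 and 118 RPKM in U937 PBS. These sums are descriptions without a test, and in each class no dG library overlapped a PBS library except for the alpha sum in U937.

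The other regulators gave the largest fall of all 46 genes. PSME3, which forms a nuclear activator ring of its own (ENSG00000131467, GRCh38 chromosome 17, 42824385 to 42843758), had 50.02 and 52.98 CPM in U937 dG, against 136 and 137 CPM in U937 PBS. It had 147 and 144 CPM in KG1A dG, against 232 and 229.8 CPM in KG1A PBS. The fold changes were -1.41 ± 0.043 in U937 (adjusted p = 6.77e-26) and -0.66 ± 0.036 in KG1A (adjusted p = 1.06e-17), and they differed by -0.74 ± 0.056 (adjusted p = 1.09e-13). PSME4, a large single-chain activator, fell in KG1A (-0.29 ± 0.037) and rose in U937 (0.23 ± 0.037), where it had 191 and 191 CPM in dG, against 168 and 157 CPM in PBS. PSMF1, known as an inhibitor of the core in the test tube, fell by 0.25 ± 0.039 in U937 and fell by 0.14 ± 0.041 in KG1A, a call lost without KG1A dG replicate 2 (adjusted p = 0.0746).

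The 20S core is built on chaperones, and of the 5 assembly factors POMP and PSMG1 to PSMG4, 4 were lower and 0 higher in each line, though not the same 4. Of all genes tested, 19.6% were lower and 29.6% higher in KG1A, and 31.5% were lower and 32.4% higher in U937. POMP, which rides on the beta ring until the core closes, had 83.8 and 82.5 CPM in KG1A dG, against 106 and 107 CPM in KG1A PBS (-0.35 ± 0.042) and 78.8 and 76.8 CPM in U937 dG, against 86.4 and 91.7 CPM in U937 PBS (-0.19 ± 0.044); the fall in U937 was lost with the DESeq2 test and without U937 dG replicate 2 (adjusted p = 0.1096 and 0.0926). PSMG1 and PSMG2 form a pair that gathers the alpha ring. PSMG1 had 92.3 and 87.98 CPM in KG1A dG, against 105 and 98.7 CPM in KG1A PBS (-0.17 ± 0.045) and 60.2 and 55.2 CPM in U937 dG, against 94.8 and 92.9 CPM in U937 PBS (-0.70 ± 0.048), while PSMG2 had 61.8 and 61.8 CPM in KG1A dG, against 65.8 and 68.5 CPM in KG1A PBS (-0.12 ± 0.048) and 38.9 and 40.8 CPM in U937 dG, against 48.6 and 47.3 CPM in U937 PBS (-0.27 ± 0.054). The fall of PSMG2 in KG1A was lost without KG1A PBS replicate 2, KG1A dG replicate 1 or KG1A dG replicate 2 (adjusted p = 0.265, 0.0952 and 0.0940).

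PSMG3 and PSMG4 form the other pair and parted between the lines. PSMG3 had 18.7 and 18.9 CPM in KG1A dG, against 22.4 and 23.4 CPM in KG1A PBS (-0.29 ± 0.071) and 32.1 and 34.2 CPM in U937 dG, against 31.3 and 30.2 CPM in U937 PBS, which was not called (0.11 ± 0.063, adjusted p = 0.14; it was called higher with DESeq2 size factors, no filter, the DESeq2 test and on RPKM, at an adjusted p = 0.00664 to 0.0494). PSMG4 had 21.4 and 23.2 CPM in KG1A dG, against 22.01 and 21.98 CPM in KG1A PBS, with overlapping libraries (0.015 ± 0.074), and 6.51 and 6.16 CPM in U937 dG, against 11.6 and 12.5 CPM in U937 PBS (-0.92 ± 0.11, adjusted p = 1.32e-09). PSMG4 had the second largest difference between the lines in size, -0.94 ± 0.13 (adjusted p = 1.60e-07), and PSMG3 differed the other way, by 0.40 ± 0.095 (adjusted p = 6.48e-04).

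Tested directly, the dG effect differed between the lines for 30 of the 46 genes, and for 44.1% of all genes. It was higher in U937 for 19, where 17.6% of all genes were, and lower in U937 for 11, where 26.4% of all genes were. None of the 14 core genes was among the 11, and 5 (PSMA5, PSMA7, PSMB3, PSMB4 and PSMB5) were among the 19. The cap was split, with 9 higher and 7 lower of 20. The 5 largest differences were those of PSMC1 (1.39), PSMG4 (-0.94), PSME3 (-0.74), PSMD5 (-0.61) and PSMC3 (-0.60), and the first of these depends on how reads of its pseudogenes are counted. The median difference was 0.06 over the 46 genes and -0.10 over all genes. It was 0.13 over the 46 without KG1A dG replicate 1, 0.011 without KG1A dG replicate 2, 0.16 without U937 dG replicate 1 and 0.22 without U937 dG replicate 2, where the median over all genes was -0.083, -0.096, 0.0091 and 0.018 in the same order. With DESeq2 size factors the values moved up by a median of 0.10 over all genes, which gave 4021 higher and 3898 lower genes beside 3230 and 4841. Besides those of PSMB8 and PSMB9, the differences of PSMD3 (without KG1A dG replicate 2, adjusted p = 0.0502) and PSMD7 (without KG1A PBS replicate 2 or U937 PBS replicate 1, adjusted p = 0.101 and 0.0534) depended on 1 library. Across the 46 genes the effects in the 2 lines had a Pearson correlation of 0.39 and a Spearman correlation of 0.31, and across the 34 core and cap genes of 0.19 and 0.19, against 0.25 and 0.36 across all 18314 genes; each line's points share its libraries, and genes are not independent replicates.

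The lines held many of these genes at different levels without dG. In PBS, 16 of the 46 genes were higher in U937 than in KG1A (41.4% of all genes were) and 27 lower (40.8% of all genes were). PSMC3 had 43.9 and 45.97 CPM in U937 PBS, against 132 and 139 CPM in KG1A PBS (-1.59 ± 0.046), and PSMC6 35.8 and 38.00 CPM in U937 PBS, against 86.2 and 86.3 CPM in KG1A PBS (-1.23 ± 0.051). PSMB5 was lower in U937 (-0.89 ± 0.053), while its immunoproteasome counterpart PSMB8 was higher (0.32 ± 0.045). PSMB6 was higher in U937 (0.74 ± 0.062), and PSMB9 did not differ past the threshold (-0.11 ± 0.078, adjusted p = 0.208). PSMD4 (0.92 ± 0.054) and PSMB10 (0.91 ± 0.15) had the largest differences upward in U937. PSMA2, PSMB7, PSMD8, PSME4 and PSMG1 each lost the call between the lines when 1 library was left out (adjusted p = 0.0502 to 0.320).

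Several proteasome genes share sequence or exons with others, and the strand setting and the handling of reads that match several genes are not given in the sources used here. Over 20% of the exonic bases of PSMC1, PSMB10, PSMA2, PSMD7, PSMA1, PSMD9 and PSMB8 are also exons of another GENCODE 29 gene, while 23 of the 46 share none. For PSMC1 this was 75.8%, all within NRDE2 on the opposite strand. Over 20% of the 50-base words in the coding transcripts of 9 genes occur in transcripts of other genes, the same 7 with PSMA6 and PSMC6. The values of these genes are uncertain as levels, and PSMC1, PSMD9 and PSMA6 were among the 4 lowest of the 46 in RPKM.

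Pseudogenes named after 12 of the 46 genes were counted, with shares of reads that ranged widely. The 13 loci named as PSMC1 pseudogenes held 90.7% of the reads counted to PSMC1 and its pseudogenes, those of PSMA6 84.5%, those of PSMA2 34.4% and that of PSME2 19.2%, while the other 8 lay between 0% and 11.1%. PSMC1, an ATPase, had 3.59 and 4.11 CPM in KG1A dG, against 5.59 and 4.89 CPM in KG1A PBS (-0.44 ± 0.15) and 4.87 and 4.99 CPM in U937 dG, against 2.29 and 2.87 CPM in U937 PBS (0.95 ± 0.16), while PSMC1P1 had 35.4 and 35.2 CPM in KG1A dG, against 48.6 and 47.1 CPM in KG1A PBS, and 23.9 and 24.8 CPM in U937 dG, against 31.9 and 33.6 CPM in U937 PBS. The pseudogene fell in U937 (-0.43 ± 0.063, adjusted p = 3.07e-07), where the gene rose. Summed with its pseudogenes, PSMC1 was lower in U937 (-0.26 ± 0.059, adjusted p = 2.37e-04), and the difference between the lines was 0.21 ± 0.079 (adjusted p = 0.0309). PSMA6 summed with its pseudogenes was lower in U937 as well (-0.43 ± 0.053, adjusted p = 7.73e-09), where the gene alone was not called. Its difference between the lines was then -0.18 ± 0.073 (adjusted p = 0.0497), against 0.34 ± 0.16 (adjusted p = 0.0808) for the gene alone. The fall of PSMC1 alone in KG1A was lost without KG1A PBS replicate 1 or KG1A dG replicate 1 (adjusted p = 0.104 and 0.130).

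**Figure D5:**
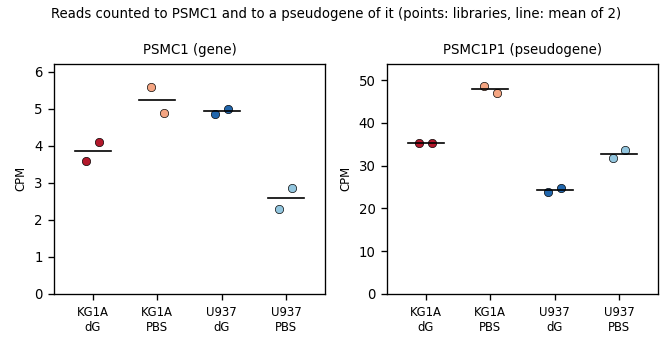
CPM counted to PSMC1 (left) and to its pseudogene PSMC1P1 (right) in the 8 libraries (points) with the mean of 2 (lines), dG left of PBS within each line. In U937, PSMC1 is higher in dG and PSMC1P1 lower, and PSMC1P1 holds several times the reads of the gene.

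Genes that act with the proteasome were counted by list, and the counts stand against 29.6% of all genes higher and 19.6% lower in KG1A, and 32.4% higher and 31.5% lower in U937. Of 14 proteasome-bound receptors, deubiquitinases and related proteins, 0 were higher and 7 lower in KG1A, and 3 were higher and 11 lower in U937. RAD23B, a shuttle that brings ubiquitinated proteins to the cap, fell in both (-0.35 ± 0.033 and -0.39 ± 0.035), and ADRM1, a ubiquitin receptor of the cap, fell in U937 (-0.56 ± 0.058) and was not called in KG1A (-0.10 ± 0.045), where it was called lower without KG1A PBS replicate 1, KG1A dG replicate 1, U937 dG replicate 1 or U937 dG replicate 2 (adjusted p = 0.0261, 0.00574, 0.00376 and 0.00355). It was also called lower there with DESeq2 size factors, library sizes alone, no filter, each line alone and on filtered RPKM (adjusted p = 0.00167 to 0.0401). AKIRIN2, which carries proteasomes into the nucleus, rose in U937 (0.39 ± 0.054) and was not called in KG1A (0.13 ± 0.060). Of 10 genes of the p97 unfoldase and its cofactors, 3 were higher and 6 lower in KG1A and 6 higher and 3 lower in U937; the 3 higher in KG1A and the 3 lower in U937 are near the shares of all genes. VCP, the unfoldase itself, fell in both (-0.57 ± 0.034 and -0.38 ± 0.035), whereas YOD1, a deubiquitinase that works with it, fell in KG1A (-0.24 ± 0.057) and rose in U937 (1.49 ± 0.050). Of 6 ubiquitin genes and activating enzymes, 2 were higher and 3 lower in each line, and the 2 higher are near the shares of all genes.

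Regulators of these genes were followed as well. Of 12 genes for NFE2L1, its relatives, partners and processing enzymes, 6 were higher and 2 lower in KG1A, and 7 were higher and 3 lower in U937; beside the same shares of all genes, the 2 and 3 lower are near the background. NFE2L1 was not called in KG1A (0.088 ± 0.038, higher without KG1A dG replicate 2 at an adjusted p = 0.0356) and rose in U937 (0.83 ± 0.038, adjusted p = 8.65e-21), where 31 proteasome genes were lower. NFE2L2, the factor of the oxidative stress response, rose by 0.87 ± 0.041 in U937, and by 0.13 ± 0.043 in KG1A, a call lost under 10 alternatives (adjusted p = 0.0619 to 0.504), among them leaving out KG1A PBS replicate 2, U937 dG replicate 1 or U937 dG replicate 2. Their small MAF partners MAFF and MAFG rose in both lines, MAFF by 0.69 ± 0.14 and 2.16 ± 0.083 and MAFG by 0.48 ± 0.062 and 1.35 ± 0.045. NFE2L1 is activated by cleavage and release from the endoplasmic reticulum, which mRNA levels do not measure.

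Of 14 inducers of the immunoproteasome genes (interferon receptors, JAK kinases, STAT, IRF and NF-kappa-B factors and NLRC5), 12 were higher and 0 lower in KG1A, where 29.6% of all genes were higher, and 12 were higher and 1, NFKB1, was lower in U937, where 32.4% of all genes were higher. STAT2 rose by 0.69 ± 0.067 in KG1A and 1.61 ± 0.053 in U937, and IRF1, which binds interferon elements, by 0.35 ± 0.058 and 0.95 ± 0.083. NLRC5, the activator of MHC class I genes, rose in KG1A (0.92 ± 0.038) and was not called in U937 (-0.053 ± 0.058; called lower with library sizes alone, -0.13, adjusted p = 0.0494). Of 9 genes of peptide transport and loading, 4 were higher and 2 lower in KG1A, near the shares of all genes, and 8 were higher and 1 lower in U937. TAP1, which shares its promoter region with PSMB9, rose by 0.42 ± 0.046 and 0.87 ± 0.053, beside 0.41 ± 0.075 and 0.77 ± 0.075 for PSMB9.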

How the data were processed

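RNA of KG1A and U937 cells in 10 mM dG or PBS was sequenced in 8 libraries, 2 per group, grouped by their titles. The authors deposited read counts per gene (57992 genes) and RPKM. Per the submitters' processing notes, bcl2fastq 2.18.0.12, TopHat2, HTSeq 0.11.2 and the build hg38 (GRCh38) were used; settings, annotation, strand and multiple matches are not given in the sources used here. A Kapa mRNA kit gave the libraries, per the labels' protocols. The deposited RPKM values could be computed again from the counts, the exon length and TMM-scaled library sizes over all genes.

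Counts were tested with edgeR 4.0.16 under R 4.3.3 (TMM, filterByExpr, quasi-likelihood F test, two-sided, Benjamini-Hochberg over 18314 genes, threshold 0.05, no minimum fold), with 1 mean per group in all 8 libraries. There were 4 residual degrees of freedom. The spread of each gene was drawn toward that of the other genes, with a median of 31 prior degrees of freedom. The common biological coefficient of variation was 2.51%. For fold changes the value after ± is a standard error computed from the F value of the test. Counts of 17488 genes were simulated with each gene's mean over all 8 libraries of both lines and the same spread for every gene. Of genes changed in KG1A dG, 95 of 100 changed 1 log2 unit and 87 of 100 changed 0.5 were called, with 7 false calls. Far fewer genes changed there than the 49.1% called in KG1A, so these rates need not hold for the data. Shares and sums used the deposited RPKM, without a test. Exons and shared 50-base words came from GENCODE 29, which matched all 46 genes by identifier, start and end, and promoters came from RefSeq. The exon models were not all the same. PSMB8 had 2006 exonic bases in the deposited data and 2997 in GENCODE 29, and PSMC2 had 3538 and 3547. Pseudogenes were found by their names in the deposited counts.

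Alternatives were DESeq2 1.42.0 and its size factors, library sizes alone, no filter, each line alone, RPKM with limma 3.58.1 (pseudocounts 1 and 0.1), a replicate block, and leaving out each library; counts summed with pseudogenes, a crossed block and extra motifs were added after the data had been seen. The genes, the lists and the rule for those given in full (the immunoproteasome, catalytic and assembly genes, the highest and lowest of each class in each line and the 5 largest line differences, with others by fold change) were chosen with earlier results of these data known. Some genes of the lists are not reported here by name.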

Additional observations from a re-analysis of the deposited data

Results flagged for a closer look

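Results were marked for a closer look where the dG effect in U937 and the dG effect in KG1A differed by edgeR's interaction test at an adjusted p under 0.05. All values here are the U937 effect minus the KG1A effect in log2 units.

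Among the core genes the difference was 0.23 for PSMA5, 0.57 for PSMA7, 0.27 for PSMB3, 0.27 for PSMB4 and 0.42 for PSMB5, so that each of these fell less, or rose, in U937. Among the cap genes it was positive for PSMC1 (1.39), PSMC4 (0.32), PSMC6 (0.26), PSMD3 (0.19), PSMD6 (0.22), PSMD7 (0.18), PSMD8 (0.29), PSMD10 (0.27) and PSMD11 (0.43). It was negative for PSMC3 (-0.60), PSMC5 (-0.56), PSMD1 (-0.31), PSMD4 (-0.49), PSMD5 (-0.61), PSMD12 (-0.37) and PSMD14 (-0.32). Among the immunoproteasome genes it was -0.21 for PSMB8, 0.36 for PSMB9, 0.33 for PSME1 and 0.56 for PSME2. The other regulators PSME3 and PSME4 differed by -0.74 and 0.52, and the assembly factors PSMG1, PSMG3, PSMG4 and POMP by -0.53, 0.40, -0.94 and 0.16; that of POMP missed the threshold without KG1A PBS replicate 1, KG1A PBS replicate 2, KG1A dG replicate 2 or U937 PBS replicate 1 (adjusted p = 0.0618, 0.108, 0.0935 and 0.220).

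Among the genes that act with the proteasome, the difference was 0.19 for VCP, 1.73 for YOD1, -0.46 for ADRM1 and 0.27 for AKIRIN2. Among the NFE2L1 group it was 0.75 for NFE2L1, 0.74 for NFE2L2, 1.46 for MAFF and 0.87 for MAFG. Among the inducers it was 0.92 for STAT2, 0.60 for IRF1 and -0.98 for NLRC5, and for TAP1 it was 0.44.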

How the results depend on the processing

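Over all alternatives run, including each library left out, the number of the 46 genes called lower ran from 34 to 40 in KG1A and from 31 to 33 in U937, and the number called higher was 1 in KG1A and ran from 5 to 9 in U937. The line difference had 17 to 24 genes higher and 10 to 12 lower, and the lines in PBS 13 to 16 and 24 to 27. Of 2897 fitted values of the 46 genes under alternatives (differences between lines only where called), 2793 kept their direction and their side of the threshold, 57 lost it, 22 gained it and 25 changed sign. Summed with pseudogenes, PSMC1 in U937 was -0.26 and PSMA6 in U937 -0.43, and the uncalled line difference of PSMA6 turned to -0.18; the other sign changes were in genes near 0. PSMG4 in KG1A was -0.050 with library sizes alone, -0.053 with no filter, -0.045 with each line alone, and on RPKM -0.035 (pseudocount 1, with or without the filter) and -0.049 (pseudocount 0.1); with 1 library left out it ran from -0.052 to 0.074. With library sizes alone, U937 values were -0.013 for PSMA6, -0.060 for PSMC6, -0.014 for PSMD10 and -0.024 for PSMD8. PSMB10 in U937 was 0.025 with DESeq2 size factors and 0.030 with DESeq2. NLRC5, which is not among the 46, was 0.037 in U937 with DESeq2 size factors, 0.036 with DESeq2, 0.0066 with no filter, -0.13 and called lower with library sizes alone, and 0.0036 and 0.0049 on RPKM. With 1 library left out, values ran from -0.20 to 0.20 for PSMB10, -0.13 to 0.032 for PSMB8 and -0.068 to 0.034 for PSME2 in KG1A, and from -0.13 to 0.12 for PSMB10, -0.11 to 0.025 for PSMB5, -0.035 to 0.11 for PSMC6 and -0.085 to 0.0095 for NLRC5 in U937. The cause of these moves was not tested.

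Counted without division by exon length, the PSMB9 share was 57.1% in KG1A dG and 38.4% in KG1A PBS, and 46.4% in U937 dG and 25.9% in U937 PBS. The PSMB8 share was then 61.8% in KG1A dG and 53.8% in KG1A PBS, and 70.9% in U937 dG and 73.0% in U937 PBS, and the PSMB10 share in U937 PBS 4.86%. Whether replicate numbers pair the libraries cannot be told from 2 pairs in each line (correlations of deviations -0.149 in KG1A and 0.0224 in U937). With a replicate block 37 genes were lower in KG1A and 31 in U937, and with crossed numbers 39 and 32. The 2 libraries per group limit every value, and genes near 5 CPM (PSMC1, PSMB10) rest on few reads. The counting of shared reads limits at least the 7 genes with over 20% of exonic bases shared. It also limits PSMA6 and PSMC6, which share over 20% of their 50-base words. Pseudogenes held 84.5% of the reads counted to PSMA6 and its pseudogenes, and 19.2% for PSME2.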
